A study of Canis lupus familiaris and Felis catus with 4 samples.

Results

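The miR-15/16 and miR-195 family was examined in urinary exosome (UExo) small RNA of cats and dogs as the rows named mmu-miR-15a-5p, mmu-miR-15b-5p, mmu-miR-16-5p and mmu-miR-195a-5p in the table of mature miRNAs, the prefix standing for mouse. These 4 names fill 5 of 2031 entries, because miR-16-5p is listed at 2 places of the mouse genome. The libraries were 1 pool of 45 cats with kidney disease (KD cats), 1 of 43 cats with normal renal function (NR cats), 1 of 47 dogs with kidney disease (KD dogs) and 1 of 37 dogs with normal renal function (NR dogs). The cats were hospital patients grouped by diagnosis and not by an experimental treatment. In the study's description the KD cats were older and lighter than the NR cats, so age and body weight cannot be told apart from disease in these pools. Criteria, breeds and ages of the dogs are not given in the sources used here. RNA of all pools came from a column kit for urinary exosomes, in cats after cells had been removed by centrifugation.

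miRNAs guide a silencing complex to messenger RNAs through bases 2 to 8, the seed. The members of this family share a seed and are known, mostly from human and mouse cells, as brakes on cell division and survival, with cyclin D1, cyclin E1 and BCL2 among their targets. Loss of the miR-15a and miR-16-1 locus is frequent in human chronic lymphocytic leukaemia. miR-16 is present in most tissues, is abundant in red blood cells, and has often been used as a reference miRNA in RT-qPCR of body fluids.

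The sequences below, from the deposited mouse annotation, show what the members have in common and where they part, with the seed in capitals and T written for U.
miR-16-5p: tAGCAGCAcgtaaatattggcg
miR-195a-5p: tAGCAGCAcagaaatattggc
miR-15a-5p: tAGCAGCAcataatggtttgtg
miR-15b-5p: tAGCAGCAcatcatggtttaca
All 4 share their first 9 bases. Counted from the 5′ end, miR-195a-5p departs from miR-16-5p at 2 of 21 positions, G10A and T11G. miR-15a-5p departs from miR-16-5p at 6 of 22 positions and miR-15b-5p at 8, and these differ from each other at 4, A12C, G20A, T21C and G22A. A search of the table for the same bases 2 to 8 found 12 entries. Of the 7 that are not members, miR-322-5p was the one with reads.

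On mm10 the members lie in 3 clusters. miR-16-5p (chromosome 14, 61631936 to 61631957, minus strand) lies 117 bases from miR-15a-5p (61632075 to 61632096). The other copy of miR-16-5p (chromosome 3, 69009918 to 69009939, plus strand) lies 121 bases from miR-15b-5p (69009775 to 69009796). miR-195a-5p (chromosome 11, 70235062 to 70235082, plus strand) lies 310 bases from miR-497-5p, which has the same seed and had 0 reads in each library. These are positions in the mouse, the genome to which the cat and dog reads were aligned.

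In the 4 libraries the family was almost entirely miR-16-5p. Over all of them 264 reads fell on the members, and 251 of these, 95.1%, were miR-16-5p. KD cats had 14 reads of mmu-miR-16-5p, NR cats 140, KD dogs 72 and NR dogs 25. The NR cat library thus stands above the others, although it holds the fewest miRNA reads. Mature miRNA reads numbered 23784 in KD cats, 18704 in NR cats, 63355 in KD dogs and 20878 in NR dogs, a depth at which 3 reads are 0.0126%, 0.0160%, 0.00474% and 0.0144% of the library, in that order.

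mmu-miR-15a-5p, the partner of miR-16-5p on chromosome 14, had 1 read in KD cats, 4 in NR cats, 2 in KD dogs and 1 in NR dogs. mmu-miR-15b-5p, the partner on chromosome 3, had 0 reads in KD cats, 3 in NR cats, and 0 in both dog libraries. mmu-miR-195a-5p, a regulator of the heart muscle cell cycle in mice, had 2 reads in NR dogs and 0 elsewhere. A count of 0 allows up to 3 reads, so at this depth none of these 3 members showed a difference between KD and NR. Of the fold changes, that of miR-15a-5p can be given, at -0.97 in cats and 0.62 in dogs on the log2 scale, and in each species its interval includes 0 under all 7 scalings described below.

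Hardly any reads came from the other strands of the hairpins. Of the 5 listed 3p arms, 1 had reads, miR-15a-3p with 2 in NR cats, against 264 reads on the 5p arms. miR-322-5p, the mouse counterpart of human miR-424 and the one further miRNA of this seed with reads, had 0 reads in both cat libraries, 3 in KD dogs and 1 in NR dogs.

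Within a library the share of miR-16-5p in the family does not depend on any scaling. It was 93.3% of 15 reads in KD cats (95% exact binomial interval 68.1 to 99.8%), 95.2% of 147 in NR cats (90.4 to 98.1%), 97.3% of 74 in KD dogs (90.6 to 99.7%) and 89.3% of 28 in NR dogs (71.8 to 97.7%). The odds of miR-16-5p against the other members in KD over NR were 0.702 in cats (0.0800 to 33.8) and 4.25 in dogs (0.459 to 53.6). Both intervals span 1 widely, so a different make-up in KD was not detectable, and a large change of make-up remains possible at these counts. All intervals here and below cover counting error only. With 1 pooled library per group there is no replicate, no test between groups was made, and differences between animals are not covered.

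**Figure D1:**
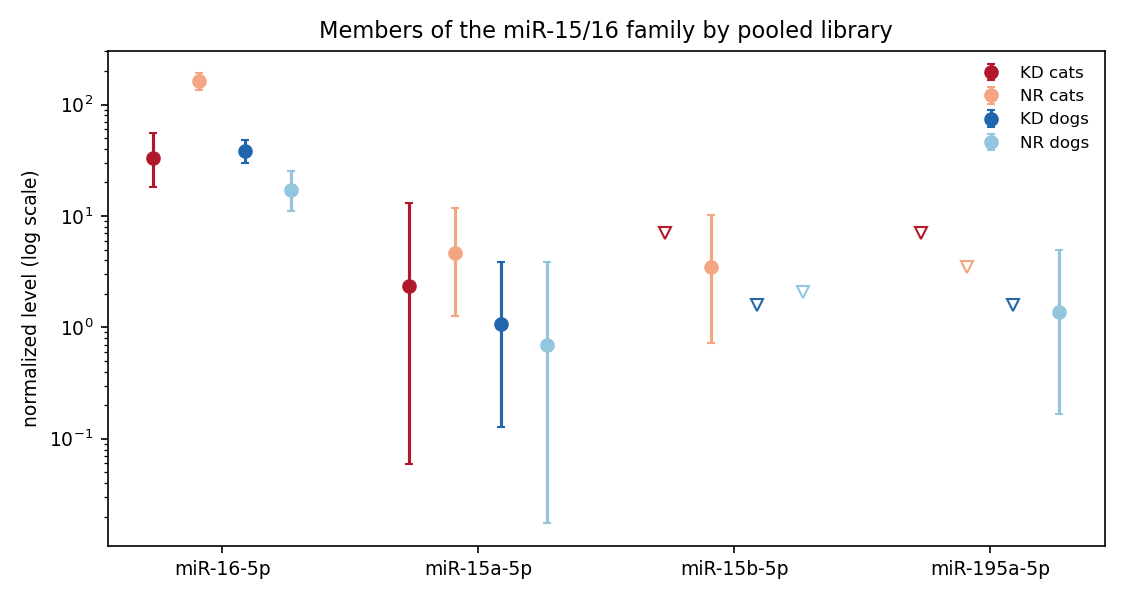
Normalized level (read count times 1 factor per library, log axis) of each member in KD cats, NR cats, KD dogs and NR dogs. Points are the pooled libraries, bars are exact 95% Poisson intervals, and open triangles mark libraries with 0 reads, placed at the level of 3 reads. miR-16-5p lies between 17.2 and 162.1, and no other member exceeds 4.63.

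Reads of miR-16-5p were split between its entries in nearly the same proportion in every library. The entry on chromosome 3 had 12 reads in KD cats, 114 in NR cats, 58 in KD dogs and 20 in NR dogs. The entry on chromosome 14 had 2 reads in KD cats, 26 in NR cats, 14 in KD dogs and 5 in NR dogs. The larger entry therefore held 85.7% (57.2 to 98.2%) of the miR-16-5p reads in KD cats, 81.4% (74.0 to 87.5%) in NR cats, 80.6% (69.5 to 88.9%) in KD dogs and 80.0% (59.3 to 93.2%) in NR dogs. The odds ratio of the entries in KD over NR was 1.37 in cats (0.277 to 13.3) and 1.04 in dogs (0.259 to 3.56). The mature sequences are identical, and how reads with several locations were counted is not stated, so the split is no measure of which locus was transcribed.

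The same was seen for most other identical pairs. In all, 8 mature sequences with 2 entries each had at least 10 reads in each library. The share of their larger entry varied across the 4 libraries by 1.57 percentage points for miR-26a-5p, 5.71 for miR-16-5p and 15.8 for miR-486-5p with miR-3107-5p, with a median of 5.88. By this measure miR-16-5p ranked 4 of 8, smallest first. The sum of both entries is used below as the level of miR-16-5p.

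**Figure D2:**
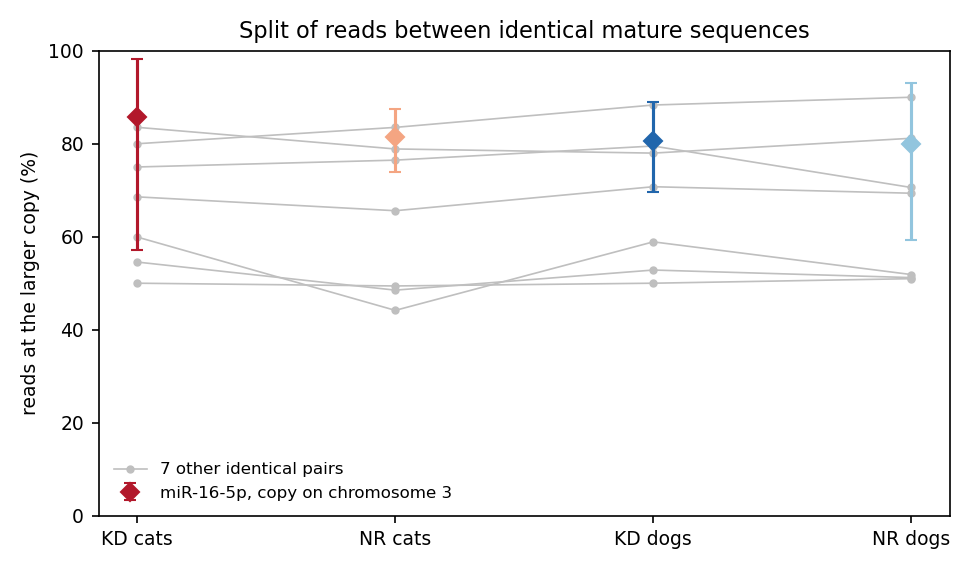
Share (%) of the reads of an identical mature sequence that was counted at its larger entry, by pooled library. Diamonds are the chromosome 3 entry of miR-16-5p with 95% exact binomial intervals, between 80.0% and 85.7%, and grey lines are the 7 other sequences.

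Set against all mature miRNA reads, the family was a small part of each library and smallest in KD cats. It held 0.0631% of the reads in KD cats (95% exact binomial interval 0.0353 to 0.104%) and 0.786% in NR cats (0.664 to 0.923%). It held 0.117% in KD dogs (0.0917 to 0.147%) and 0.134% in NR dogs (0.0891 to 0.194%). The cat intervals lie far apart, whereas those of the dogs overlap. By read number miR-16-5p ranked 41 of 143 detected names in KD cats, against 23 of 200 in NR cats, and 30 of 166 in KD dogs, against 32 of 163 in NR dogs.

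The entries of miR-10a, miR-10b, miR-486 and miR-3107, called the dominant entries here, take up a large and unequal part of these libraries. Without them the family made up 0.452% of 3316 reads in KD cats and 1.51% of 9747 in NR cats. On that base it made up 0.595% of 12434 reads in KD dogs and 0.568% of 4926 in NR dogs. The cat difference was thus smaller but in the same direction. The order of the dog libraries turned, but within counting error. On this base the log2 fold change of KD over NR dogs was 0.066 (-0.58 to 0.75), an interval that includes 0.

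The deposited normalized values equal the read count times 1 factor per library (2.36 in KD cats, 1.16 in NR cats, 0.531 in KD dogs and 0.689 in NR dogs). On this scale miR-16-5p was at 33.0 (95% Poisson interval 18.04 to 55.4) in KD cats and 162.1 (136.4 to 191.3) in NR cats. It was at 38.2 (29.9 to 48.1) in KD dogs and 17.2 (11.1 to 25.4) in NR dogs. NR cats stood highest, 4.24-fold above KD dogs (3.17 to 5.72) and 9.41-fold above NR dogs (6.12 to 15.03). The next neighbours in the order could not be told apart, since KD dogs were 1.16-fold above KD cats (0.648 to 2.22) and KD cats 1.92-fold above NR dogs (0.920 to 3.83). NR cats stood above both dog libraries under all 6 scalings that span the species, by 1.94-fold to 6.59-fold over KD dogs and by 2.83-fold to 9.41-fold over NR dogs. The lower end of the order turned with the scaling. KD cats were above NR dogs on the deposited factors alone and lay between 0.461-fold and 0.832-fold of NR dogs under the other 5. KD cats lay below KD dogs under all 6, between 0.194-fold and 0.863-fold, with intervals that include 1 under 4 of them. This set of scalings was added after the data were seen. A gap between cats and dogs can also come from placing both on mouse sequences, which was not tested.

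In the cat pools the family was lower in KD. The study reports that sequencing and PCR differed in its cats, and considers pooled against individual samples the reason. By sequencing miR-21a was lower in KD, and by PCR it was higher after normalization to urinary creatinine or RNA. For miR-22 and miR-26a both methods gave lower levels in KD, significantly so for the raw PCR levels. miR-10b and miR-486 were higher in KD by sequencing, whereas the study describes raw PCR levels other than miR-21a as tending to be lower. miR-16 was not among the miRNAs that the study measured by PCR. The summed level of the family was 35.3 in KD cats and 170.2 in NR cats. Its log2 fold change was -2.27, with exact 95% limits of -3.14 and -1.499, which is 4.81-fold lower. miR-16-5p alone gave -2.30, with limits of -3.20 and -1.502, its entry on chromosome 3 gave -2.22 and that on chromosome 14 gave -2.68. The members other than miR-16-5p had 1 read together in KD cats and 7 in NR cats. These others together were at -1.78 (-7.28 to 1.18), too few reads to tell whether they changed. The difference therefore rests on reads of miR-16-5p.

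The family lay below the bulk of the cat miRNAs. Over the 79 entries that averaged 10 or more on the normalized scale, the median log2 fold change was -0.55, and relative to it the family was at -1.72. Both miR-16-5p entries passed that minimum and both were lower by over 2-fold, against a background of 35.4% of the 79 entries lower and 20.3% higher to that extent. With 2 entries counted, and both copies of the same sequence, this share says nothing beyond the sizes themselves. In the order of changes from the lowest, the chromosome 14 entry ranked 7 and the chromosome 3 entry 10 of 79. The chromosome 14 entry had 2 reads in KD cats, and its change had limits of -5.80 and -0.68. It passed the minimum through its level in NR cats, 30.1 against 4.71 in KD cats, so its call and rank add no support.

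The cat difference kept its direction and was past 2-fold under each of the 7 scalings computed. These were the deposited factors, read counts with no scaling, the total miRNA count, the median of ratios from DESeq2, TMM factors from edgeR within a species, and totals without miR-10a and miR-10b or without all dominant entries. The log2 fold change of the family ranged from -3.64 with the total count to -1.74 against the total without the dominant entries. No interval reached 0. Since a scaling moves every entry alike, the distance to the median, -1.72, is the same in all of them.

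In dogs the family moved with the bulk of the miRNAs. Its level was 39.3 in KD dogs and 19.3 in NR dogs. On the deposited scale this was a log2 fold change of 1.03 (0.38 to 1.71). The median of the 54 entries that passed the minimum was 1.05, so relative to it the family was at -0.02 and miR-16-5p at 0.10. The chromosome 3 entry of miR-16-5p, the one member entry to pass the minimum in dogs, was higher by over 2-fold with 58 reads in KD dogs and 20 in NR dogs, as were 51.9% of the 54 entries, with 0% lower by as much. In the order of changes it ranked 31 of 54 from the lowest, near the middle.

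The direction in dogs depended on the scaling. The family was higher in KD dogs under 5 of the 7 scalings and lower under 2, from -0.44 to 1.40, and under 5 the interval included 0. It was 0.20 (-0.44 to 0.88) with edgeR's TMM factors and -0.20 (-0.84 to 0.48) with the total count. A change of the family in KD dogs beyond that of the other miRNAs was thus not detectable at this depth.

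**Figure D3:**
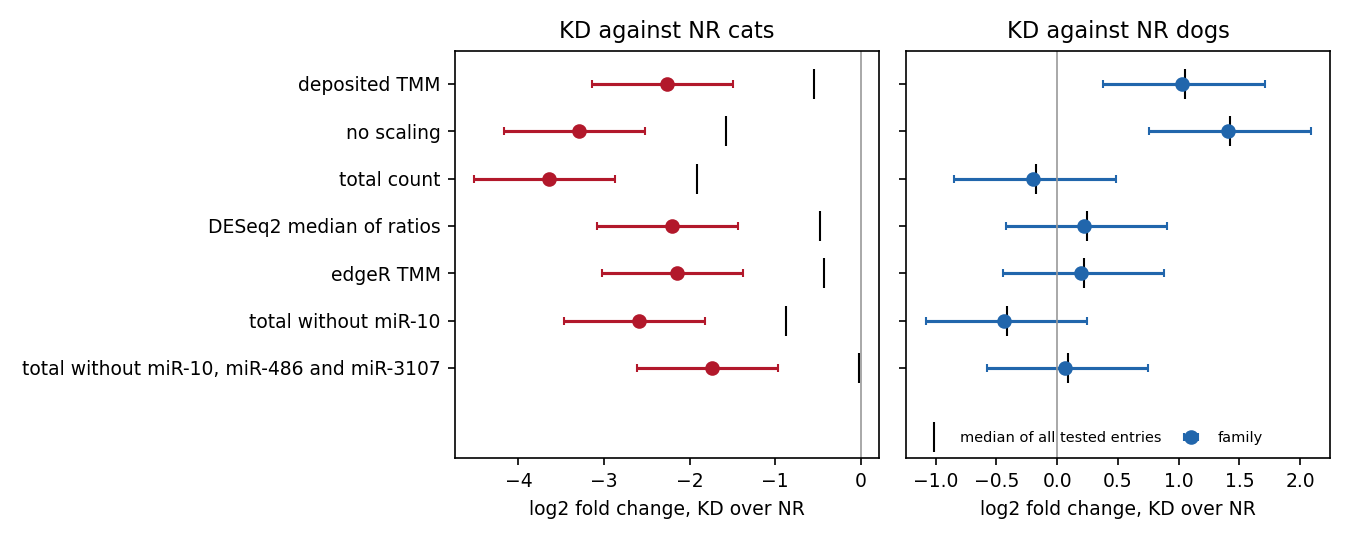
Log2 fold change (KD over NR) of the summed family with its exact 95% counting interval under 7 scalings, in cats and in dogs. The black tick is the median of all tested entries under the same scaling. Relative to the tick the family is at -1.72 in cats and at -0.02 in dogs under each scaling.

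**Figure D4:**
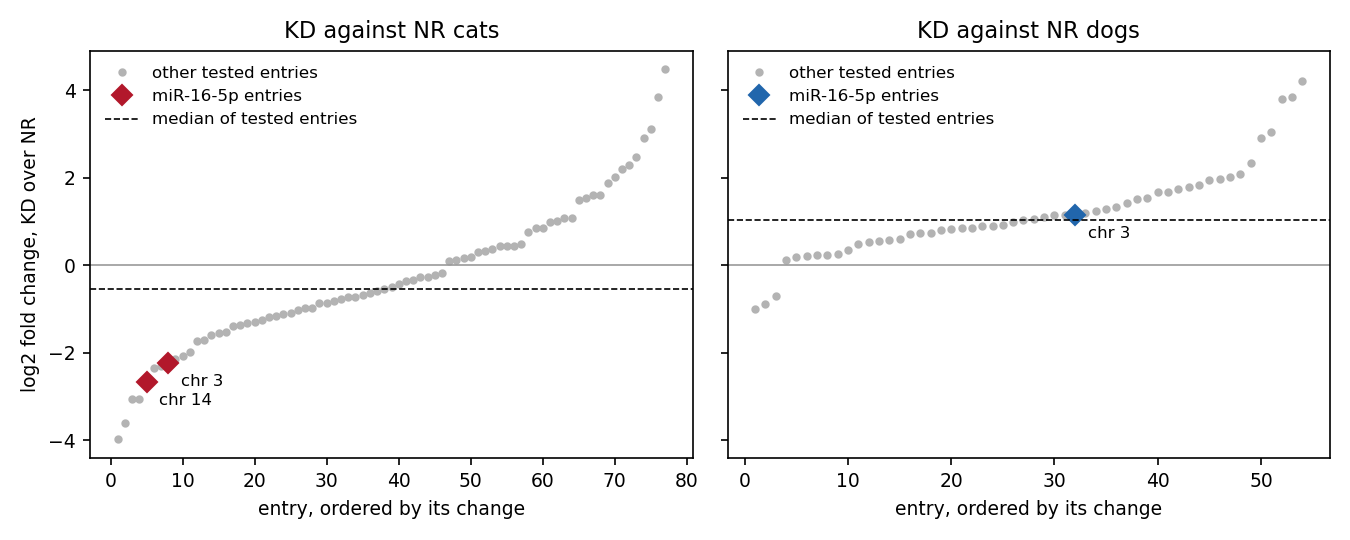
Log2 fold change (KD over NR, deposited scale) of the tested entries in order of size, 79 in cats, of which 2 with 0 reads in KD cats cannot be drawn, and 54 in dogs. Diamonds are the miR-16-5p entries, at -2.68 and -2.22 in cats and 1.16 in dogs, and the dashed line is the median, -0.55 in cats and 1.05 in dogs.

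The level of miR-16-5p was also set against the study's minimum of over 150 reads in the higher library, one of its criteria beside a change of over 2-fold and expression in the kidney. As read numbers in NR cats the entries had 114 and 26 and the sum 140, all under 150. The study states its minimum as a read number and lists its miRNAs by hairpin, whereas mature entries are used here, so the units differ. With the minimum put on the normalized scale instead, which is not the study's rule, the treatment of the copies decided. In NR cats the single entries were at 132.0 and 30.1 on the normalized scale, both under that minimum, whereas the sum was at 162.1 and passed it. In dogs the sum in KD, 72 reads and 38.2 on the normalized scale, was below the minimum either way.

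Ratios inside a library are free of any scaling, and show which miRNAs kept pace with miR-16-5p. In cats 40 other names had at least 40 reads over both libraries. The ratio of miR-16-5p to the partner was lower in KD for 38 of them and higher for 2, let-7i-5p and miR-378a-3p, and its median log2 change was -1.78. For miR-378a-3p the change was 0.05 (-0.97 to 0.99), an interval that includes 0. On the lower side intervals included 0 too, as for miR-142-5p at -0.58 (-1.58 to 0.33) and miR-22-3p at -0.33 (-1.27 to 0.51). All 40 ratios share the same miR-16-5p reads, so they are not independent of each other. The minimum left out names on either side, among them miR-451a at 1.68 (-1.14 to 7.12) and miR-103-3p at -5.91 (-8.41 to -3.84). The count of 38 therefore holds for the names with more reads only. In dogs the ratio was lower in KD for 18 of 42 names and higher for 24, with a median of 0.13. To miR-191-5p, often used as a reference miRNA, there were 3.94 reads of miR-16-5p per 100 in KD cats and 27.3 in NR cats, a log2 change of -2.79 (-3.72 to -1.96). In dogs there were 10.9 per 100 in KD and 8.14 in NR, a log2 change of 0.43 (-0.28 to 1.17). These partners and the minimum of 40 reads were chosen after the values were seen.

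miR-103-3p and miR-107-3p, known as regulators of insulin sensitivity in mice, carry the same 7 bases 1 position earlier, at bases 1 to 7. They are shown for this shifted match, again with the run in capitals.
miR-103-3p: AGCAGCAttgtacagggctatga
miR-107-3p: AGCAGCAttgtacagggctatca
They did not share the course of miR-16-5p in cats. miR-103-3p, both copies summed, had 18 reads in KD cats and 3 in NR cats, which is 3.61 on the log2 scale (1.83 to 6.02), and it was higher under all 7 scalings. miR-107-3p had 6 reads in each cat library. In dogs miR-103-3p had 15 reads in KD and 2 in NR, which is 2.53 on the log2 scale (0.43 to 5.70), with intervals that include 0 under 5 of the 7 scalings. This pair was chosen after its values were seen.

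The profile most like that of the family was that of miR-22-3p. Likeness was the Euclidean distance of log2(normalized value + 1), centred on each name's mean over the 4 libraries, among 90 names with at least 20 reads in all. The nearest were miR-22-3p at 0.225, let-7c-5p at 0.531, miR-21a-3p at 0.786, miR-204-5p at 0.798 and let-7a-5p at 0.854, against a median of 2.06. miR-22-3p had 159 reads in KD cats, 1269 in NR cats, 717 in KD dogs and 305 in NR dogs. In the same order let-7c-5p had 3, 26, 10 and 6 reads and miR-21a-3p 2, 10, 7 and 2, so their places rest on few reads. There were 8.81 reads of miR-16-5p per 100 of miR-22-3p in KD cats and 11.03 in NR cats, and 10.04 per 100 in KD dogs and 8.20 in NR dogs. The log2 change of this ratio was -0.33 (-1.27 to 0.51) in cats and 0.29 (-0.41 to 1.04) in dogs, and both intervals include 0. miR-22-3p was picked for its nearness on these same values, so a small change of the ratio follows from the choice and is no support. With 4 libraries likeness is a description only.

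Because miR-16 is made by blood cells as well as by kidney and urothelium, marker miRNAs of these cells were read beside it. Of 5 red blood cell entries, 3 had reads in KD cats and 4 in NR cats, and their summed level was 7129 in KD cats and 712.0 in NR cats. In dogs 3 had reads in both libraries, and the sum was 3323 in KD and 208.8 in NR. Nearly all of it was the miR-486 sequence, miR-144-5p was at 0 in all 4 libraries, and miR-144-3p was at 0 in all but NR cats. miR-451a, a miRNA of maturing red cells, had 1 read in KD cats, 32 in NR cats, 20 in KD dogs and 8 in NR dogs. There were 0.463 reads of miR-16-5p per 100 red cell list reads in KD cats and 22.8 in NR cats, and 1.15 in KD dogs and 8.25 in NR dogs. miR-16-5p thus ran against miR-486 and in the direction of miR-451a in cats.

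Of 5 white blood cell entries, 2 had reads in KD cats, where miR-142-3p, miR-223-3p and miR-155-5p were at 0, and 5 in NR cats. Their summed level was 148.5 in KD cats and 522.2 in NR cats, a log2 change of -1.81 (-2.22 to -1.43), the direction of miR-16-5p. In dogs 4 had reads in KD, with miR-142-3p at 0, and miR-142-5p alone in NR, and the sum was 65.3 in KD dogs and 4.13 in NR dogs. Most reads of this list were miR-142-5p, with 62 of 63 in KD cats, 415 of 451 in NR cats and 112 of 123 in KD dogs. The ratio of miR-16-5p to this list changed by a log2 of -0.48 (-1.48 to 0.42) in cats, an interval that includes 0, and by -2.83 (-4.46 to -1.41) in dogs. The change in dogs rests on 6 reads of the list in NR dogs.

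The urinary tract epithelium list, the miR-200 family with miR-141, miR-203 and miR-205, had reads for 7 of 7 entries in each library. Its summed level was 252.2 in KD cats and 122.7 in NR cats, and 316.4 in KD dogs and 137.1 in NR dogs. Against the sum, miR-200a-3p was lower in KD cats (11.8 against 15.1) and miR-205-5p lower in KD dogs (7.43 against 13.8), and the other entries were higher. miR-16-5p in ratio to the list changed by a log2 of -3.34 (-4.33 to -2.42) in cats and -0.06 (-0.78 to 0.70) in dogs. The kidney tubule list (miR-192, miR-194, miR-204 and miR-215) had reads for 3 of 4 entries in KD cats, where miR-194-5p was at 0, and 4 of 4 elsewhere. Its sum was 75.4 in KD cats and 154.0 in NR cats, and 435.4 in KD dogs and 241.2 in NR dogs. In cats miR-215-5p was higher in KD (11.8 against 3.47), whereas miR-192-5p, miR-194-5p and miR-204-5p were lower. In KD dogs 737 of the 820 reads of the list were miR-192-5p. The ratio of miR-16-5p to this list changed by -1.27 (-2.35 to -0.24) in cats and 0.30 (-0.40 to 1.04) in dogs. The part of these cell types in the levels of miR-16-5p was not tested, and in pooled urine fewer vesicles of a cell type and less miRNA per vesicle cannot be told apart.

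**Figure D5:**
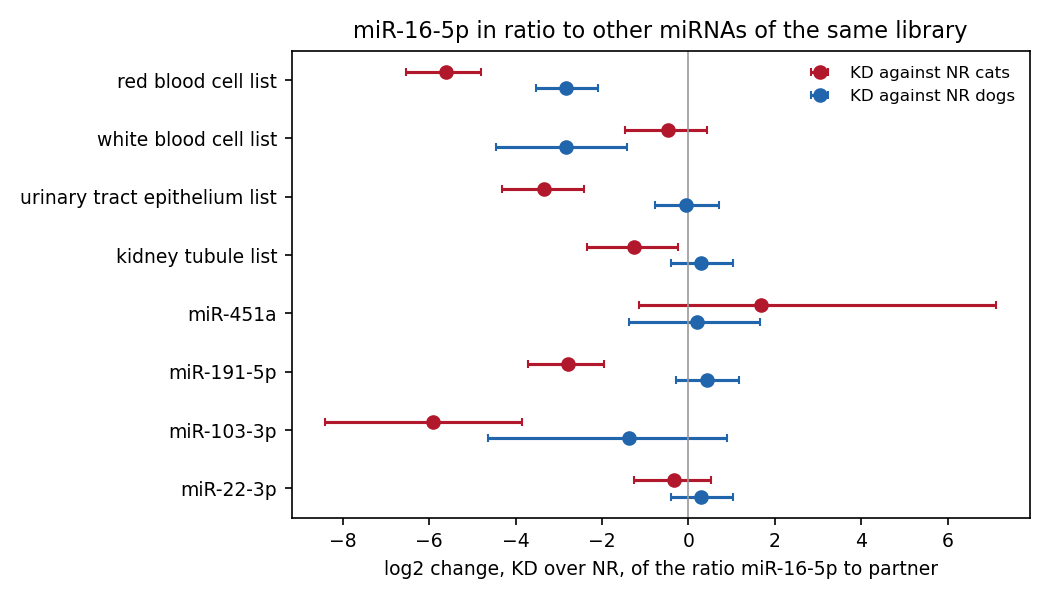
Log2 change (KD over NR) of the ratio of miR-16-5p reads to the reads of 4 marker lists and 4 single miRNAs in the same library, with exact conditional 95% intervals, in cats and dogs. In cats the ratio lies below 0 for the red cell, epithelium and tubule lists, miR-191-5p and miR-103-3p, and its interval includes 0 for the white cell list, miR-451a and miR-22-3p. In dogs it lies below 0 for both blood cell lists, and the other 6 intervals include 0. miR-22-3p was picked for its likeness to the family, so its small change follows from that choice.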

How the data were processed

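Small RNA of UExo was sequenced from 4 pooled libraries. The authors trimmed adaptors and inserts under 14 nt, aligned reads to mouse mm10 with Bowtie 1.0.0 allowing several locations, and used StrandNGS to count reads on annotated mouse small RNAs. CASAVA 1.8.2 is named as well in the processing notes of the submitters. The deposited read counts are unnormalized, and the authors' log2 values were normalized by TMM. In each library the deposited log2 value is log2 of the count plus a constant, with results below 0 written as 0 (for 31 entries of KD dogs and 47 of NR dogs with reads), so levels were computed as count times factor. A total of 4 emptied lines are not analysed here.

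Entries were taken by name and copies summed. No test within a species was possible with single libraries, and none was run over both species. Intervals of ratios are exact conditional (Clopper-Pearson) and those of ratios of ratios are conditional odds ratio intervals, both at 95%. For 0 reads the upper limit was taken as 3. The background is the share of entries past 2-fold among those averaging 10 or more on the normalized scale. The named miRNAs were the members and their copies, entries of the same seed, the 3p arms, the 5 names of nearest profile and 4 marker lists. Identical pairs, miR-191-5p, miR-103-3p, miR-107-3p, let-7i-5p and miR-378a-3p were named after their values were seen. The members and lists were chosen with earlier results of these data known. Alternatives were 6 other scalings, the larger copy alone, 1 added to both values, all entries of the seed, other minimum values and other folds. Interval coverage was tested on simulated Poisson counts. Exact intervals cover such counts by construction, so this checks the computation only and not differences between animals or libraries. Scaling factors came from edgeR 4.0.16 and DESeq2 1.42.0 in R 4.3.3, and all else from scipy 1.17.1, numpy 2.4.6 and pandas 2.3.3, with figures by matplotlib 3.10.9, in Python 3.11.15.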

Additional observations from a re-analysis of the deposited data

Results flagged for a closer look

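On the deposited normalized values the change in KD had opposite signs in dogs and cats for the family, for miR-16-5p, for each of its entries and for miR-15a-5p. On the log2 scale the change in dogs minus that in cats was 3.29 for the family (95% counting interval 2.24 to 4.38) and 3.45 for miR-16-5p (2.35 to 4.58). It was 3.38 for the chromosome 3 entry, 3.78 for the chromosome 14 entry and 1.60 for miR-15a-5p (-4.06 to 7.80), which rests on 8 reads. With 1 library per group these differences were not tested. They include a shift of all entries, and after subtraction of each species' median they were 1.70 for the family, 1.85 for miR-16-5p and 0.00210 for miR-15a-5p. The signs were opposite only on scalings that put dogs above 0, which were 5 of 7 for the family and 2 of 7 for miR-15a-5p.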

How the results depend on the processing

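No paired analysis was possible because each group is 1 pooled library, and for the same reason no library could be left out. The family's log2 fold change in cats moved beyond its interval with no scaling (-3.29) and the total count (-3.64), and stayed within it under the other alternatives. In dogs it was -0.20 with the total count and -0.44 against the total without miR-10, both turned in sign, and 0.22 with the median of ratios, 0.20 with edgeR's factors and 0.066 against the total without miR-10, miR-486 and miR-3107. Under these 2 turning scalings miR-16-5p in dogs was at -0.075 and -0.31, its chromosome 3 entry at -0.065 and -0.30, and its chromosome 14 entry at -0.12 and -0.35. The median of all entries turned with them, by the construction of the scaling. Against reads without miR-10, miR-486 and miR-3107 the family's share was 0.452% in KD cats, 1.51% in NR cats, 0.595% in KD dogs and 0.568% in NR dogs, and with the larger copy alone it was 0.647% in NR cats.

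The background counts moved most. Entries higher by over 2-fold in KD cats numbered 16, and 5 with a minimum of 50, 6 with no scaling, 4 with the total count and 9 without miR-10. Lower entries in cats numbered 28, and 12 with a minimum of 50, 15 at 3-fold, 54 with the total count, 17 with edgeR and 12 without miR-10, miR-486 and miR-3107. In dogs 28 were higher, and 12 with a minimum of 50, 61 with none, 15 at 3-fold, 49 with no scaling, 6 with the total count, 11 with the median of ratios, 12 with edgeR, 5 without miR-10 and 9 without miR-10, miR-486 and miR-3107. In dogs 0 were lower, and 6 with no minimum, 3 at 1.5-fold, 1 with no scaling, 10 with the total count, 5 with the median of ratios, 6 with edgeR, 17 without miR-10 and 6 without miR-10, miR-486 and miR-3107. Depth limits the members other than miR-16-5p, which had at most 4 reads in a library.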
